A study of Mus musculus with 6 samples.

Results

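Platelet receptors and granule proteins were followed here as 9 genes in leukemia cells that carried or lacked the stress-response gene Ddit4. The genes were Itga2b, Pear1, Clec1b, Gp1ba, Gp1bb, Gp9, Gp6, Pf4 and Vwf, and they are 9 of the 55421 genes in the deposited count table. They were chosen by name, as a list of platelet genes put together with the changes between the genotypes in these same libraries already known. Their levels and their differences between the genotypes are therefore given as a description, with no p-value, and how many passed the threshold of the fit across all genes is given as a count, from which nothing is read.

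The libraries were bulk RNA-seq of mouse leukemia driven by AE9a, the AML1-ETO9a splice form of the t(8;21) fusion. All 6 libraries came from cells that carried the AE9a retrovirus. The AE9a-Ddit4+/+ group held 3 libraries from Ddit4 wild-type cells and the AE9a-Ddit4-/- group held 3 libraries from Ddit4-deficient cells. Per the study's methods, c-Kit+ bone marrow stem and progenitor cells of C57BL/6 mice aged 6 to 8 weeks, with or without Ddit4, were transduced with AE9a, transplanted into irradiated mice, and the leukemia cells were taken from the bone marrow of the recipients. The labels add culture in IMDM with serum. A figure legend gives transplanted mice as the source, with n = 3 in each group. No source ties each library to its own mouse, so part of the spread between libraries may be technical. In the study's primary cohort, most recipients of wild-type cells developed leukemia. Fewer recipients of knockout cells did so than there are knockout libraries here. Knockout libraries drawn from that cohort alone would therefore share a primary leukemia at least in part, and wild-type libraries may share one. SE and adjusted p may then not measure the spread between independent leukemias. The age of the recipients at sampling is not given in the sources used here. The donors are described only as Ddit4-/- mice, with no promoter or Cre named.

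In the normal animal these 9 proteins belong to the megakaryocyte, the large marrow cell that sheds platelets. Platelets stick to damaged vessel wall when the GPIb-IX-V complex on their surface holds von Willebrand factor, they are activated through collagen and podoplanin receptors, and they bind each other when the integrin αIIbβ3 takes up fibrinogen. Granules inside the platelet store chemokines and adhesive proteins that are released on activation. The integrin chain encoded by Itga2b, known as CD41, is also found on early blood progenitors and on some mast cell progenitors, so its RNA alone does not mark a megakaryocyte.

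Total counts lay between 62141558 and 72717681 per library. The targeted gene, Ddit4, lay between 161 and 342 counts per 1000000 (CPM) in AE9a-Ddit4+/+ and between 77.7 and 85.9 CPM in AE9a-Ddit4-/- (log2 fold change −1.56, SE 0.28, edgeR quasi-likelihood adjusted p = 0.00635). Ddit4 RNA was thus lower but not absent in the libraries labelled knockout, and the deleted part of the gene was not examined here. At the protein level, the study reports by western blot that AE9a-Ddit4-/- leukemia cells lacked DDIT4. Mitochondrial genes took 5.03% to 7.90% of counts in AE9a-Ddit4+/+ and 11.3% to 16.4% in AE9a-Ddit4-/-. The Y-linked gene Ddx3y stood at 88.2 to 125 CPM in AE9a-Ddit4-/- and at 0.0589 to 0.0774 CPM in AE9a-Ddit4+/+. Xist, which is transcribed from the inactive X chromosome of females, stood at 20.3 to 129 CPM and 566 to 1032 CPM, respectively. Genotype and sex of the cells cannot be told apart in these libraries. In bulk RNA, a larger share of cells of a given type and more RNA per cell cannot be told apart either.

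Promoter sequence was at hand for 8 of the 9 genes in the RefSeq table of assembly GRCm38.p6. Shown here are the 250 bases before the start of Clec1b, Gp1ba, Gp9 and Pf4, which encode an activating receptor, a ligand-binding and a supporting chain of the adhesion complex, and a granule chemokine, and whose windows overlap no annotated exon. Capitals mark 3 short letter strings searched on both strands: GATAA, read by the GATA factors of megakaryocytes, GGAAG, a core of ETS factor sites, and TGTGGT, a core of RUNX sites. Each sequence is written 5′ to 3′ in the direction of transcription.
Clec1b: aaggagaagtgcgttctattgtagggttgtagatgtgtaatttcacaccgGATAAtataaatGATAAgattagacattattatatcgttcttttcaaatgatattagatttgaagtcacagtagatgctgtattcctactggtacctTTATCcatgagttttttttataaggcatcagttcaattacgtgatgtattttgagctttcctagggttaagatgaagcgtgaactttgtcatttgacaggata
Gp1ba: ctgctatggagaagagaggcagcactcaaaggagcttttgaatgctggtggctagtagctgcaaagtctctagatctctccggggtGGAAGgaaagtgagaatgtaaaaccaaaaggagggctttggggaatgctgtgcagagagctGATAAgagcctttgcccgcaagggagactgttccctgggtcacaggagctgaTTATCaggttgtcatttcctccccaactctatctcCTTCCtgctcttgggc
Gp9: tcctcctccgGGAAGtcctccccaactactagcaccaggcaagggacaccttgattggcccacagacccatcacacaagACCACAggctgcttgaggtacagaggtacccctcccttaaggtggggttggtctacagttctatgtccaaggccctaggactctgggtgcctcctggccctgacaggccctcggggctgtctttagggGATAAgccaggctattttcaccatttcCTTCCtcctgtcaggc
Pf4: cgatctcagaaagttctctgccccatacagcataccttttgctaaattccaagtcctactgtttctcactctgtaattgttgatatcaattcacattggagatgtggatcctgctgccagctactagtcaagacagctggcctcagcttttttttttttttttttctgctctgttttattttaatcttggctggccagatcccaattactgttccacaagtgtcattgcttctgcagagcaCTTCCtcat
These windows lie at chr6:129397047-129397296 on the plus strand for Clec1b, chr11:70638872-70639121 on the plus strand for Gp1ba, chr6:87777820-87778069 on the plus strand for Gp9 and chr5:90772185-90772434 on the plus strand for Pf4.

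The 4 windows differ in their letters. Clec1b held 3 GATAA strings and neither of the other strings. Gp1ba held 2 GATAA and 2 GGAAG strings, and the GGAAG nearest the start ended 12 bases before it. Gp9 held 1 GATAA, 2 GGAAG and 1 TGTGGT string. Pf4 held 1 GGAAG and no GATAA. Over the 8 genes with a promoter, GATAA was found in 4 windows, GGAAG in 6 and TGTGGT in 1. The same strings were found in 22.6%, 64.1% and 14% of the 32851 promoter windows of that length in the table. A match describes the letters of a window and not a bound site. The window of Gp1bb overlaps annotated exons of its neighbour Sept5, and the windows of Itga2b and Pear1 overlap annotated exons of their own genes.

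Read against the wild-type libraries, most of the platelet genes were far higher in AE9a-Ddit4-/-. Of the 9 genes, 8 had enough counts for the fit across all genes, and Gp6 did not. In that fit, 6 of the 8 (Itga2b, Pear1, Clec1b, Gp1bb, Gp9 and Pf4) were past the threshold and higher, 1 (Vwf) was past it and lower, and Gp1ba was not past it. The lower count was 0 when any library other than AE9a-Ddit4+/+ replicate 2 was left out of the fit. Of all 18375 genes tested, 19.4% were called higher and 10.7% lower. The number called lower, 1975, was 1168 without AE9a-Ddit4+/+ replicate 1, 1089 without AE9a-Ddit4+/+ replicate 3 and 1157 without AE9a-Ddit4-/- replicate 1. The 3 libraries of a genotype did not overlap those of the other for 7 of the 8 genes in the higher direction and 1 in the lower, where 27.9% and 22.2% of all genes tested did not overlap. The median log2 fold change of the 8 genes was 5.41, and that of all genes tested was 0.04. Because the genes were picked with these changes in view, nothing is read from these counts.

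**Figure D1:**
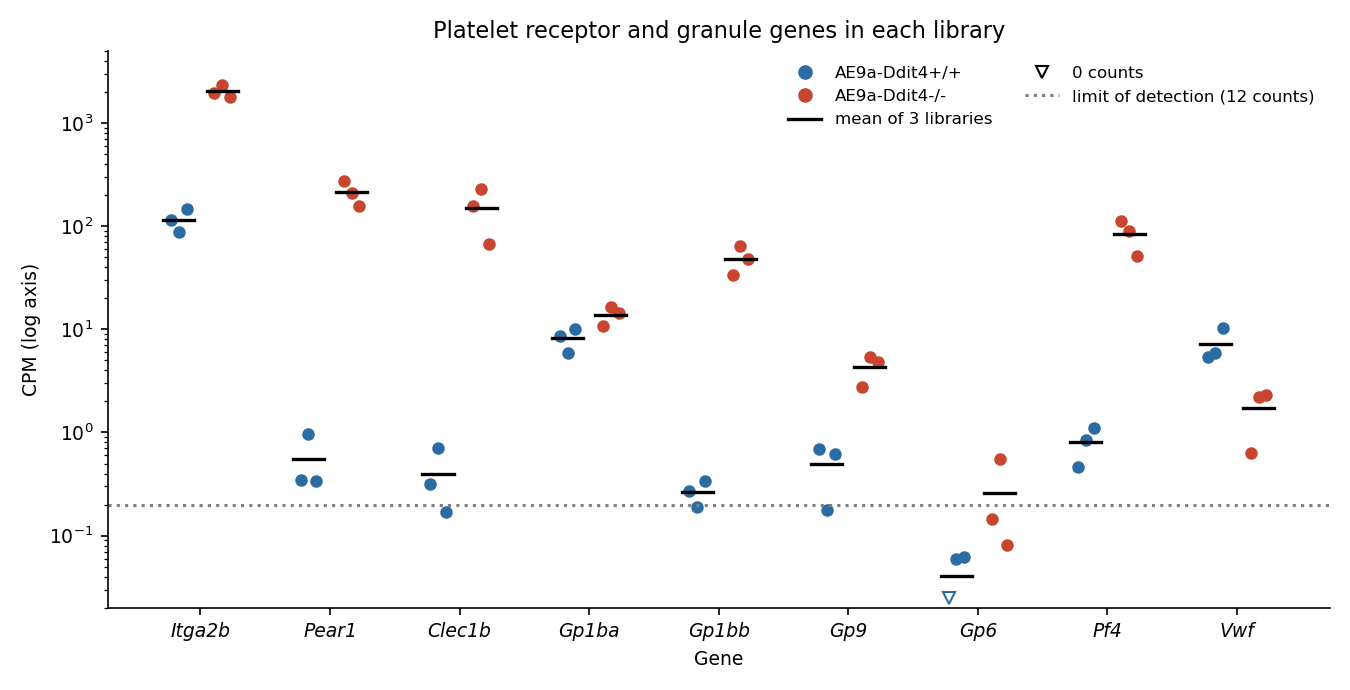
CPM of each of the 9 genes in each library on a log axis, with AE9a-Ddit4+/+ in blue, AE9a-Ddit4-/- in red and a bar at the mean of 3 libraries. The dotted line marks 12 counts in the library where that is most CPM, and the open triangle marks 0 counts. The red points lie far above the blue ones for Itga2b, Pear1, Clec1b, Gp1bb and Pf4, slightly above for Gp1ba, and below for Vwf.

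Itga2b, on the minus strand at chr11:102453297-102470122 of GRCm38, encodes the αIIb chain of the platelet fibrinogen receptor. It was measured at 114, 88.0 and 146 CPM in the wild-type libraries and at 1945, 2330 and 1788 CPM in the knockout libraries. The lowest knockout library lay more than 10-fold above the highest wild-type library. The means were 116 ± 28.9 and 2021 ± 279 CPM (SD, n = 3 in each group), a log2 fold change of 4.13 (SE 0.26). Itga2b was the gene of the 9 with the most RNA in both genotypes, and the one that varied least between knockout libraries, with a coefficient of variation of 13.8%. By mean CPM it ranked 26th of the 18375 genes tested in AE9a-Ddit4-/- and 1904th in AE9a-Ddit4+/+.

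The partner chain of αIIb, β3, is encoded by Itgb3. Itgb3 rose from 2.95 ± 1.50 to 201 ± 37.3 CPM (log2 fold change 6.08, SE 0.44, edgeR adjusted p = 0.000289). Per kilobase of exon, Itga2b lay 20.4 to 68.2 times above Itgb3 in the wild-type libraries and 9.68 to 12.3 times above it in the knockout libraries. The ratio was therefore lower in every knockout library than in any wild-type library, while Itga2b stayed the more abundant RNA of the pair. Itgav, whose protein is the other partner of β3, also rose, from 8.82 ± 2.31 to 19.3 ± 2.72 CPM (log2 fold change 1.13, SE 0.30, edgeR adjusted p = 0.0259). That call was lost when AE9a-Ddit4+/+ replicate 1 (adjusted p = 0.0693) or 3 (0.0804), or AE9a-Ddit4-/- replicate 2 (0.0897) or 3 (0.0775), was left out of the edgeR fit. The fibrinogen genes Fga, Fgb and Fgg, made in liver, had too few counts to be tested.

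The GPIb-IX-V complex is assembled from GPIbα, the chain that binds von Willebrand factor, GPIbβ, GPIX and GPV. Its genes moved unevenly. Gp1bb, on the minus strand at chr16:18620317-18622403, was barely detected in AE9a-Ddit4+/+, at 0.269, 0.192 and 0.340 CPM, or 17, 13 and 22 counts. In AE9a-Ddit4-/- it stood at 33.7, 63.9 and 47.8 CPM. The means were 0.267 ± 0.0745 and 48.5 ± 15.1 CPM, a log2 fold change of 7.50 (SE 0.42). Most of the Gp1bb span lies within that of Sept5 (chr16:18620502-18629954), the gene upstream of it on the same strand. It also lies mostly within Gm49601 (chr16:18620466-18626427), which was not past the threshold (edgeR adjusted p = 0.382). Reads in the stretches they share cannot be told apart, and the ratios of Gp1bb to other genes carry the same limit. Sept5 itself went from 32.7 ± 20.5 to 14.5 ± 6.10 CPM, the opposite direction (edgeR adjusted p = 0.128, not past the threshold).

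Gp9, at chr6:87778072-87779768, encodes the small chain GPIX that the complex needs to reach the surface. It was measured at 0.696, 0.177 and 0.619 CPM in AE9a-Ddit4+/+ and at 2.76, 5.38 and 4.79 CPM in AE9a-Ddit4-/-. All knockout libraries were above all wild-type libraries, and the lowest wild-type library held 12 counts, the limit of detection used here. The means were 0.497 ± 0.280 and 4.31 ± 1.37 CPM, a log2 fold change of 3.11 (SE 0.63).

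Gp1ba, at chr11:70639122-70642036, encodes the chain that holds von Willebrand factor. Its CPM were 8.67, 5.89 and 10.1 in AE9a-Ddit4+/+ and 10.7, 16.4 and 14.4 in AE9a-Ddit4-/-. The groups did not overlap, but the highest wild-type library and the lowest knockout library lay close together. The means were 8.22 ± 2.13 and 13.8 ± 2.89 CPM, a log2 fold change of 0.75 (SE 0.33), the smallest difference of the 8 genes fitted. Gp5, the gene of the remaining chain, stood at 41.9 ± 11.8 and 49.8 ± 13.7 CPM and was not past the threshold (log2 fold change 0.25, SE 0.29, edgeR adjusted p = 0.557).

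Compared per kilobase of exon, the chains of the complex stood in a different proportion in each genotype. In AE9a-Ddit4+/+, Gp1ba lay 22.8 to 24.8 times above Gp1bb, and in AE9a-Ddit4-/- it lay at 0.197 to 0.243 of Gp1bb. Gp1bb lay at 0.00562 to 0.00826 of Gp5 in AE9a-Ddit4+/+ and at 0.92 to 1.11 of it in AE9a-Ddit4-/-. In the knockout libraries Gp1ba and Gp9 were close to equal, at a ratio of 0.973 to 1.26. In AE9a-Ddit4+/+ the RNA of Gp5 and Gp1ba was thus present with very little of Gp1bb and Gp9, whereas in AE9a-Ddit4-/- the RNA of all 4 chains was present and Gp1ba and Gp9 were the lower ones.

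**Figure D2:**
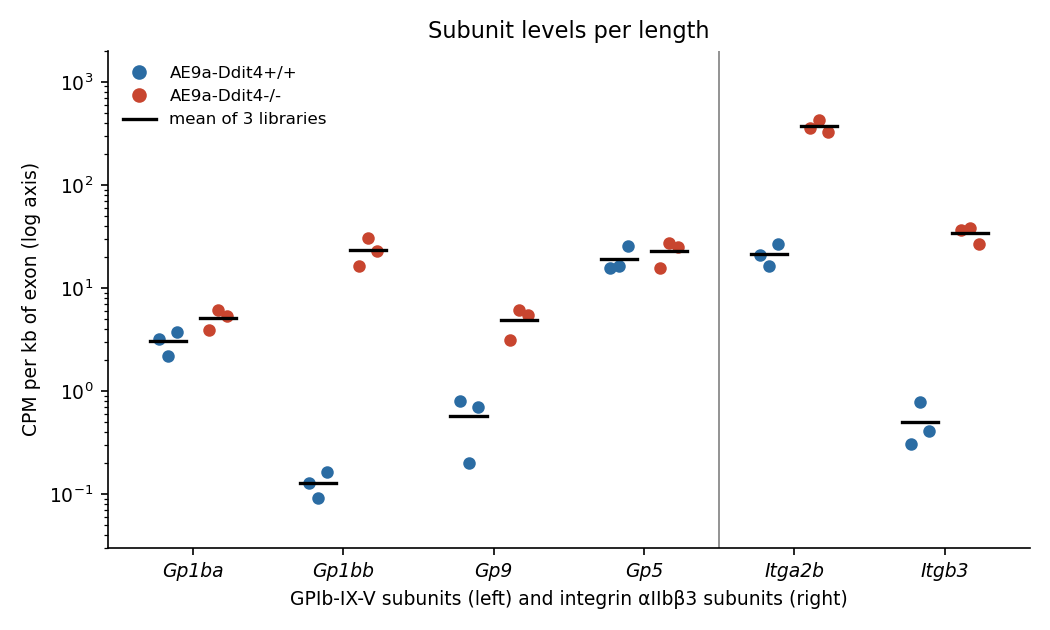
CPM per kilobase of exon on a log axis for the 4 genes of the GPIb-IX-V complex and the 2 genes of integrin αIIbβ3, by library, with AE9a-Ddit4+/+ in blue, AE9a-Ddit4-/- in red and a bar at the mean of 3 libraries. Gp1bb lies below Gp1ba in the blue libraries and above it in the red ones, while the blue and red points of Gp5 overlap.

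The other receptors signal activation. Pear1, on the minus strand at chr3:87747890-87824306, encodes a receptor that becomes phosphorylated when platelets touch each other. It was measured at 0.348, 0.958 and 0.340 CPM in AE9a-Ddit4+/+ and at 274, 208 and 156 CPM in AE9a-Ddit4-/-. The means were 0.549 ± 0.354 and 213 ± 59.2 CPM, a log2 fold change of 8.59 (SE 0.55). In the annotation the span of Pear1 also overlaps Lrrc71 and Insrr, and these stood at means of 1.01 and 0.0968 CPM in AE9a-Ddit4-/-, far below Pear1.

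Clec1b, at chr6:129397297-129409335, encodes CLEC-2, the platelet receptor for podoplanin. It was measured at 0.317, 0.707 and 0.170 CPM in AE9a-Ddit4+/+ and at 155, 228 and 67.3 CPM in AE9a-Ddit4-/-. The knockout libraries were all far above the wild-type ones but spread widely, with AE9a-Ddit4-/- replicate 3 the lowest. The means were 0.398 ± 0.278 and 150 ± 80.3 CPM, a log2 fold change of 8.54 (SE 0.74). Clec9a, which overlaps Clec1b in the annotation, rose from 0.146 ± 0.147 to 19.3 ± 6.63 CPM (log2 fold change 7.02, SE 1.01, edgeR adjusted p = 0.00275), and reads in the stretch they share cannot be told apart. Clec9a held 9, 20 and 0 counts in AE9a-Ddit4+/+. Pdpn, which encodes podoplanin, the ligand of CLEC-2, stood at 0.0739 ± 0.128 and 0.203 ± 0.130 CPM (edgeR adjusted p = 0.502).

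Gp6, on the minus strand at chr7:4363965-4397744, encodes GPVI, the collagen receptor of platelets. It held 0, 4 and 4 counts in the wild-type libraries and 9, 34 and 6 counts in the knockout libraries. Of the 6 libraries, 5 were below the limit of 12 counts and AE9a-Ddit4-/- replicate 2 alone was above it, at 0.560 CPM. Gp6 did not pass the filter on low counts, and a difference was not detectable at this depth. Fcer1g, whose protein is the signalling chain that GPVI needs and that many myeloid cells and mast cells also use, rose from 55.2 ± 22.5 to 150 ± 34.9 CPM (log2 fold change 1.44, SE 0.32, edgeR adjusted p = 0.0141). That call was lost without AE9a-Ddit4+/+ replicate 1 (edgeR adjusted p = 0.0532) or 3 (0.0516).

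Of the stored proteins, Pf4 was higher in AE9a-Ddit4-/- and Vwf was lower. Pf4, at chr5:90772435-90773383, encodes platelet factor 4, a chemokine of the alpha granule. It was measured at 0.459, 0.855 and 1.11 CPM in AE9a-Ddit4+/+ and at 113, 89.7 and 51.2 CPM in AE9a-Ddit4-/-. The lowest knockout library lay far above the highest wild-type library. The means were 0.809 ± 0.330 and 84.5 ± 31.1 CPM, a log2 fold change of 6.70 (SE 0.49). Ppbp, the next gene on the chromosome and the source of another alpha-granule chemokine, rose from 0.186 ± 0.114 to 7.03 ± 3.93 CPM (log2 fold change 5.23, SE 0.74, edgeR adjusted p = 0.00261). In AE9a-Ddit4+/+ Ppbp held 14, 4 and 18 counts. Per kilobase of exon Pf4 lay 14.7 to 25.4 times above Ppbp in the knockout libraries. Cxcl5, a further chemokine gene, was not past the threshold (0.248 ± 0.118 and 1.02 ± 0.849 CPM, edgeR adjusted p = 0.109).

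Vwf, at chr6:125546774-125686679, encodes von Willebrand factor, which is made by megakaryocytes and by endothelial cells. It was measured at 5.37, 5.91 and 10.2 CPM in AE9a-Ddit4+/+ and at 0.626, 2.19 and 2.32 CPM in AE9a-Ddit4-/-. The groups did not overlap, and AE9a-Ddit4-/- replicate 1 was the lowest, with 39 counts. The means were 7.17 ± 2.66 and 1.71 ± 0.944 CPM, a log2 fold change of −2.06 (SE 0.58). Vwf was the only one of the 8 genes fitted with a negative fold change. Adamts13, the protease that cuts von Willebrand factor, held no counts in AE9a-Ddit4+/+ and stood at 0.475 ± 0.243 CPM in AE9a-Ddit4-/- (at least 2.58-fold higher against a floor of 12 counts per library, edgeR adjusted p = 0.00898).

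Per kilobase of exon the order of the 9 genes also differed between the genotypes. In AE9a-Ddit4+/+ the order was Itga2b (21.2 CPM per kb), Gp1ba (3.02), Pf4 (1.12), Gp9 (0.565), Vwf (0.446), Gp1bb (0.128), Pear1 (0.0809), Clec1b (0.078) and Gp6 (0.00683). The library ranges of Pf4 and Gp9, of Gp9 and Vwf, of Gp1bb and Pear1, and of Pear1 and Clec1b overlapped there, so these neighbours did not differ beyond their spread. In AE9a-Ddit4-/- the order was Itga2b (371 CPM per kb), Pf4 (117), Pear1 (31.3), Clec1b (29.4), Gp1bb (23.2), Gp1ba (5.09), Gp9 (4.89), Vwf (0.107) and Gp6 (0.0444). There the ranges of Pear1 and Clec1b, of Clec1b and Gp1bb, of Gp1ba and Gp9, and of Vwf and Gp6 overlapped. With the longest transcript as the length, Vwf stood above Gp9 in AE9a-Ddit4+/+ (0.811 against 0.565 CPM per kb), and the order was otherwise the same.

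Summed over the 9 genes, their level was 103 to 169 CPM in AE9a-Ddit4+/+ and 2131 to 2944 in AE9a-Ddit4-/-. Itga2b made up 85.6% to 87.6% of that sum in AE9a-Ddit4+/+ and 76.7% to 83.9% in AE9a-Ddit4-/-. Without Itga2b, the sum was 14.7 to 23.0 CPM in AE9a-Ddit4+/+ and 343 to 614 CPM in AE9a-Ddit4-/-. Within AE9a-Ddit4-/-, the genes did not share a highest library. Replicate 2 was highest for 6 of them (Itga2b, Clec1b, Gp1ba, Gp1bb, Gp9 and Gp6), replicate 1 for Pear1 and Pf4, and replicate 3 for Vwf. The coefficient of variation between knockout libraries ran from 13.8% for Itga2b to 55.1% for Vwf among the 8 genes fitted.

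For each gene fitted, the gene with the most similar profile over the 6 libraries was sought as the smallest root-mean-square difference of centred log2 values. For Itga2b it was Mansc1 (0.23), for Pear1 it was Robo3 (0.22), for Clec1b it was Gm47015 (0.28) and for Gp1ba it was Gspt1 (0.13). For Gp1bb it was Rhoj (0.15), for Gp9 it was Dnmt3b (0.11), for Pf4 it was Arhgef5 (0.24) and for Vwf it was Mtap (0.24). No gene of the 9 was the closest match of another. A pseudocount of 0.5 CPM was added before the log, and it sets much of the value where counts are low. Mansc1, Rhoj and Arhgef5 held 12 counts or fewer in every AE9a-Ddit4+/+ library. Mansc1 thus matched Itga2b with a fitted log2 fold change of 6.66 against 4.13.

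Of the 18 nearest tested protein-coding genes, 1 on each side of each of the 9, 8 were higher, 1 was lower and 9 were not past the threshold, where 19.4% of all genes were higher and 10.7% lower. The higher neighbours were Fam171a2 beside Itga2b (edgeR adjusted p = 0.00872), Clec1a beside Clec1b (0.00255), Efcc1 beside Gp9 (0.00402), Tbx1 beside Gp1bb (0.0138), Cd9 beside Vwf (0.00296), Ppbp and Cxcl3 beside Pf4 (0.00261 and 0.0282) and Sh2d2a beside Pear1 (0.0262). The call of Sh2d2a was lost without AE9a-Ddit4+/+ replicate 3 (edgeR adjusted p = 0.086) or AE9a-Ddit4-/- replicate 1 (0.084) or 3 (0.058). That of Cxcl3 was lost without AE9a-Ddit4+/+ replicate 1 (edgeR adjusted p = 0.0625), 2 (0.0515) or 3 (0.0536) or AE9a-Ddit4-/- replicate 1 (0.0969) or 2 (0.0546). Slc25a11 beside Gp1ba fell (log2 fold change −1.22, edgeR adjusted p = 0.0189), although that call was lost without AE9a-Ddit4+/+ replicate 1 (0.0616) or 3 (0.0653) or AE9a-Ddit4-/- replicate 1 (0.0669) or 2 (0.0627). Gpatch8, on the other side of Itga2b, stood at 125 ± 18.7 and 121 ± 13.6 CPM (edgeR adjusted p = 0.881), and Rab43, on the other side of Gp9, at 72.3 ± 8.50 and 71.6 ± 22.1 CPM (0.973). Vwf therefore lay lower in AE9a-Ddit4-/- while its neighbour Cd9, itself a platelet tetraspanin, rose from 19.9 ± 4.44 to 68.0 ± 13.8 CPM.

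The 9 genes were set beside 139 other genes of platelets and megakaryocytes in 7 lists. Of the 132 tested, 57 were higher and 8 lower in AE9a-Ddit4-/- (edgeR, adjusted p below 0.05), with a median log2 fold change of 0.66, beside 19.4% and 10.7% of all genes and a median of 0.04. Without AE9a-Ddit4-/- replicate 1, 5 were lower. Partners of the 9 proteins gave 5 higher and 0 lower of 8 tested, and 6 higher and 0 lower at an unadjusted p below 0.05, with 5 and 0 by DESeq2. Without AE9a-Ddit4+/+ replicate 1 or 3, 3 of the partners were higher. Other platelet surface receptors gave 14 higher and 1 lower of 27, with a median of 1.77. P2rx1, an ATP-gated channel, rose from 23.3 ± 14.2 to 173 ± 16.0 CPM (edgeR adjusted p = 0.00432), and P2ry1, an ADP receptor, fell from 122 ± 74.5 to 7.11 ± 2.46 CPM (edgeR adjusted p = 0.00156).

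Other granule and secreted proteins gave 10 higher and 0 lower of 18, with a median log2 fold change of 2.58. At an unadjusted p below 0.05 there were 12 higher and 1 lower, by DESeq2 there were 12 and 0, and without AE9a-Ddit4+/+ replicate 2 edgeR called 1 lower. Cd63, a membrane protein of granules in many cells, rose from 54.0 ± 26.2 to 698 ± 184 CPM (log2 fold change 3.69, edgeR adjusted p = 0.0015), and Sparc, which encodes osteonectin, from 1.17 ± 0.388 to 90.1 ± 18.8 CPM (6.26, 0.000177). The machinery that forms and releases granules gave 5 higher and 3 lower of 25, with a median of −0.08. These counts were near the shares of all genes, 19.4% higher and 10.7% lower. DESeq2 gave 6 and 5, and the lower count was 2 without AE9a-Ddit4+/+ replicate 1 or AE9a-Ddit4-/- replicate 1 or 2. Slc18a2, the monoamine transporter that loads serotonin into granules of platelets and histamine into those of mast cells, rose from 7.88 ± 1.78 to 267 ± 90.0 CPM (edgeR adjusted p = 0.000248). Unc13d, a priming factor for granule release, fell from 246 ± 75.9 to 85.2 ± 19.7 CPM (edgeR adjusted p = 0.00822).

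Platelet signalling gave 17 higher and 1 lower of 31, with a median log2 fold change of 1.20. Plek, which encodes the kinase substrate pleckstrin, rose from 385 ± 57.5 to 1009 ± 8.65 CPM (edgeR adjusted p = 0.00179). The gene called lower, Apbb1ip, lost its call when any library other than AE9a-Ddit4-/- replicate 3 was left out, with edgeR adjusted p of 0.0599, 0.0947 and 0.105 without AE9a-Ddit4+/+ replicates 1, 2 and 3 and 0.128 and 0.118 without AE9a-Ddit4-/- replicates 1 and 2. The megakaryocyte cytoskeleton gave 3 higher and 2 lower of 10, with Tubb1, the tubulin of the platelet rim, at 0.192 ± 0.136 and 4.92 ± 1.34 CPM (edgeR adjusted p = 0.00224). Without AE9a-Ddit4-/- replicate 1 the lower count was 1, since Flna then missed the threshold (edgeR adjusted p = 0.0573).

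Megakaryocyte transcription factors gave 3 higher and 1 lower of 13, with a median log2 fold change of 0.06, close to that of all genes. Gata2 rose from 147 ± 28.5 to 564 ± 57.4 CPM (edgeR adjusted p = 0.000869), Erg from 1.73 ± 0.431 to 99.7 ± 19.0 CPM (0.000129) and Meis1 from 0.615 ± 0.561 to 28.9 ± 3.93 CPM (0.00535). Gfi1b fell from 51.9 ± 10.7 to 20.2 ± 4.75 CPM (edgeR adjusted p = 0.00799), and without AE9a-Ddit4+/+ replicate 2 a further factor was called lower, so that the count was 2. The other 9 tested were not past the threshold. Among them were Gata1, at 140 ± 25.5 and 133 ± 13.5 CPM (edgeR adjusted p = 0.803), Nfe2, at 63.7 ± 53.2 and 65.4 ± 18.9 CPM (0.966), and Fli1, at 49.0 ± 19.1 and 51.1 ± 11.9 CPM (0.903), which were named after their values were seen.

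**Figure D3:**
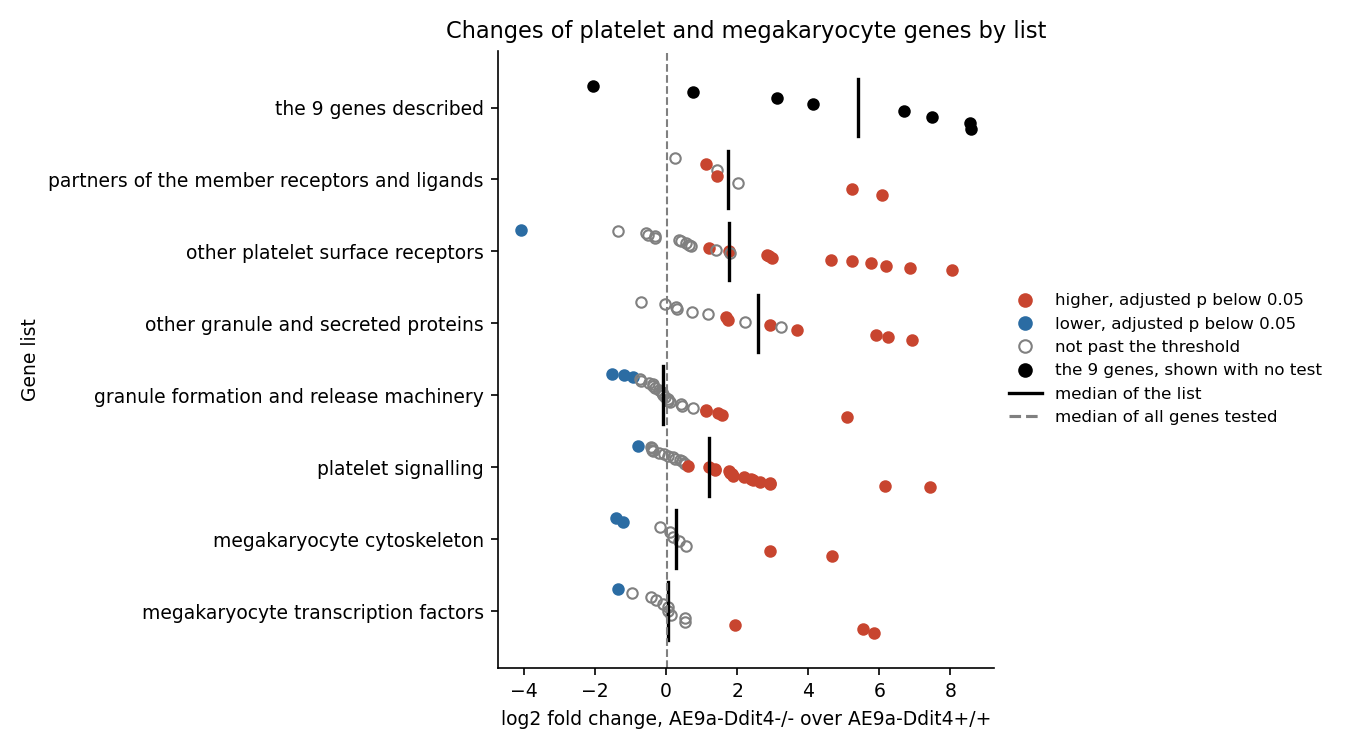
Log2 fold change of AE9a-Ddit4-/- over AE9a-Ddit4+/+ (horizontal axis) for each gene tested, by list (vertical axis), where the top row shows the 8 of the 9 platelet genes that were fitted, with black bars at the list medians and a dashed line at the median of all genes. Genes with a genotype at or below 12 counts per library are not drawn because their fold changes are bounds, but they count in the medians. Red points, genes called higher, number 14 of 27 among surface receptors and 17 of 31 in signalling, some of them not drawn, and the medians of granule machinery and transcription factors lie near the dashed line.

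Several kinds of cell in marrow use some of these genes, and their markers were summed beside them. Erythroid markers summed to between 7721 and 16328 CPM in AE9a-Ddit4+/+ and between 377 and 975 CPM in AE9a-Ddit4-/-, and 11 of the 12 were lower. Leukemia blast markers lay at 659 to 1766 CPM and 2292 to 2643 CPM, with Kit at 24.7 ± 8.92 and 411 ± 103 CPM and Cd34 at 5.92 ± 3.79 and 519 ± 34.4 CPM, and 5 of the 8 were higher and 1 lower. That 1 gene, Elane, lost its call without AE9a-Ddit4+/+ replicate 1 (edgeR adjusted p = 0.0875) or 2 (0.0932) or AE9a-Ddit4-/- replicate 1 (0.122) or 2 (0.105). Mpo, at 488 ± 328 and 456 ± 104 CPM (edgeR adjusted p = 0.903), and Spi1, at 169 ± 24.1 and 115 ± 30.9 CPM (0.116), were not past the threshold. Without AE9a-Ddit4-/- replicate 3 the lower count was 2, since Spi1 was then called lower (edgeR adjusted p = 0.0466). Mast cell and basophil markers lay at 113 to 135 CPM and 678 to 1236 CPM. Most of that difference was Cpa3, at 2.48 ± 1.38 and 770 ± 280 CPM. Of the mast cell tryptases, Tpsab1 was at 0 in all libraries. Tpsb2 was at 0 in all AE9a-Ddit4+/+ libraries and above 12 counts in at least 1 AE9a-Ddit4-/- library. Hdc (75.2 ± 19.8 and 129 ± 35.4 CPM), Fcer1a (37.5 ± 5.84 and 24.6 ± 9.92 CPM) and Ms4a2 (7.23 ± 3.66 and 3.18 ± 2.42 CPM) were not past the threshold (edgeR adjusted p = 0.0795, 0.181 and 0.238). Hdc was called higher without AE9a-Ddit4-/- replicate 1 (edgeR adjusted p = 0.0426). Of the 7 mast cell and basophil genes tested, 3, Cpa3 among them, were higher and 0 lower by edgeR. There were 4 and 0 at an unadjusted p below 0.05 and 3 and 0 by DESeq2. Without AE9a-Ddit4-/- replicate 2 edgeR called 1 lower, Fcer1a (adjusted p = 0.0425).

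Endothelial cells make Vwf too. The sum of the endothelial markers was 58.8 to 137 CPM in AE9a-Ddit4+/+ and 414 to 468 CPM in AE9a-Ddit4-/-, with 8 higher and 1 lower of 12 tested. Tie1 made up much of it in AE9a-Ddit4-/-, at 182 ± 28.0 CPM, against 6.75 ± 2.66 CPM for Cdh5, which encodes the endothelial cadherin. Egfl7 rose from 12.6 ± 9.39 to 70.8 ± 8.27 CPM (edgeR adjusted p = 0.0122) and Eng from 47.2 ± 14.8 to 88.8 ± 14.3 CPM (0.0375). The Eng call was lost when any library other than AE9a-Ddit4+/+ replicate 1 was left out. Sox17 and Emcn were at 0 in AE9a-Ddit4+/+. In AE9a-Ddit4-/-, each marker of the list was above 12 counts in at least 1 library. Plvap, the gene called lower, lost its call without AE9a-Ddit4+/+ replicate 1 (edgeR adjusted p = 0.141) or 3 (0.11) or AE9a-Ddit4-/- replicate 1 (0.14) or 2 (0.123). Stromal markers summed to 7.22 to 14.5 CPM and 165 to 187 CPM, of which Pdgfrb gave 154 ± 13.7 CPM in AE9a-Ddit4-/-. Dcn (3.47 ± 2.67 and 3.06 ± 2.11 CPM), Col1a1 (2.76 ± 0.489 and 5.35 ± 2.75 CPM) and Col1a2 (1.02 ± 0.255 and 5.33 ± 4.11 CPM) were not past the threshold (edgeR adjusted p = 0.884, 0.199 and 0.0748). Col1a2 was called higher without AE9a-Ddit4-/- replicate 3 (edgeR adjusted p = 0.00882). Of the 8 stromal genes tested, 3 were higher and 0 lower by edgeR, with 4 and 0 at an unadjusted p below 0.05 and by DESeq2. The part of any of these cells in the levels of the 9 platelet genes was not tested.

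**Figure D4:**
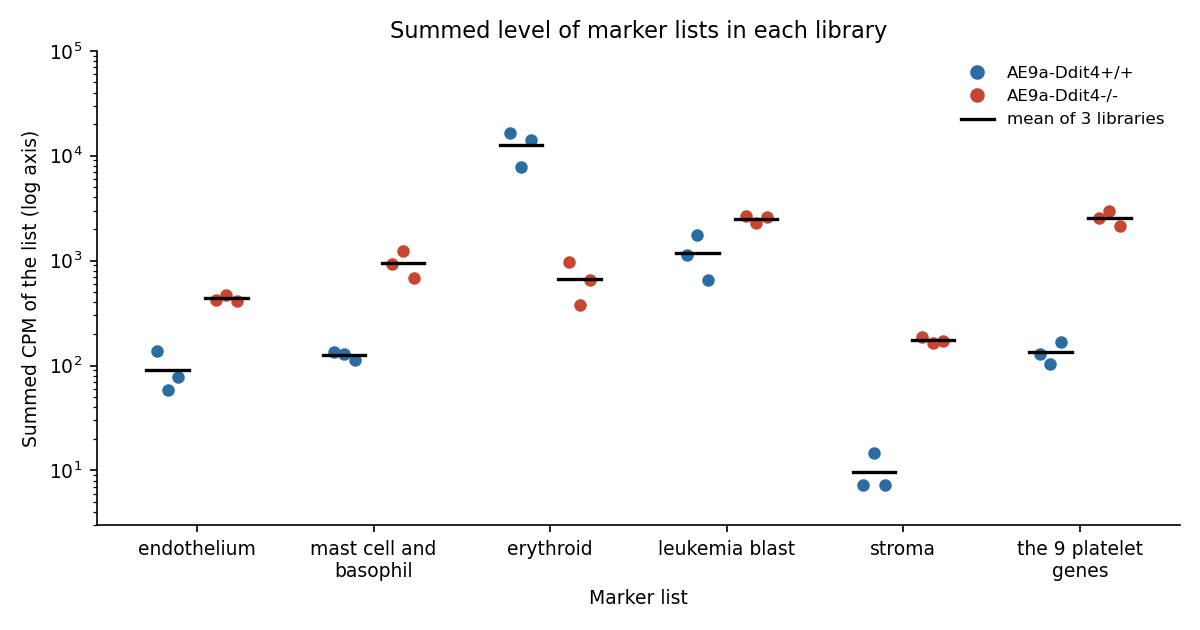
Summed CPM of each marker list, and of the 9 platelet genes, in each library on a log axis, with AE9a-Ddit4+/+ in blue, AE9a-Ddit4-/- in red and a bar at the mean of 3 libraries. The erythroid sum is lower in the 3 red libraries, and the other sums, that of the platelet genes included, are higher.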

How the data were processed

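Per the labels, RNA of 6 libraries was sequenced as 150-bp pairs on a NovaSeq instrument. The labels name an mRNA kit and the study's methods an rRNA-depleted directional kit. The submitters' processing notes name GRCm38 and mm10. Aligner, counter, annotation and use of strand are not given in the sources used here. The authors deposited 1 table of raw read counts per gene with 55421 genes, of which 26626 were at 0 in all 6 libraries. Low values fell on multiples of 4 in excess (1.40 to 1.62 entries of 4, 8 or 12 for each entry of 2, 6 or 10), so 12 counts per library, 0.163 to 0.198 CPM, served as limit of detection. Positions came from GENCODE M21, in which 99.52% of identifiers were found, and 27 gene symbols turned into dates were restored.

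Genes were filtered by filterByExpr and fitted with edgeR 4.0.16 (quasi-likelihood test, TMM factors 0.921 to 1.05) in R 4.3.3, with Benjamini-Hochberg adjustment over the 18375 genes tested and a threshold of 0.05. SE was the log2 fold change over the root of the F statistic. CPM are counts per 1000000 of the TMM-scaled totals. DESeq2 1.42.0 was an alternative. The 9 genes and the other lists were chosen with earlier results of these data known. Named were the 9 genes, Ddit4, all partners, up to 3 genes called in each direction per list and the 3 most abundant markers per genotype by mean CPM, nearest neighbours and most similar genes (mean of at least 1 CPM, pseudocount 0.5). Some genes that this rule names are not reported here. Other alternatives were size factors, totals alone, no filter, 10 counts in every library, counts divided by 4, no mitochondrial genes, a replicate block, each library left out, adjusted p below 0.01 and longest transcripts.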

Additional observations from a re-analysis of the deposited data

How the results depend on the processing

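Numbers of genes called are given as higher and lower in AE9a-Ddit4-/-. By edgeR there were 3560 and 1975 of all genes, 57 and 8 of the other platelet and megakaryocyte genes, and 6 and 1 of the 9 platelet genes. When each library had to hold 10 counts or more, only 14269 genes were tested, and 2341 of them were higher. At an adjusted p below 0.01 the counts were 1964 and 712, with 4 lower among the other platelet genes and 0 lower among the 9. Same-numbered libraries of the groups did not deviate together (correlations of deviations −0.165, −0.194 and −0.0495), so the numbers are not taken as pairs. With a replicate block 2177 and 787 genes were called, 45 and 4 of the other platelet genes, and 5 and 0 of the 9, Gp9 and Vwf missing the threshold. Among the other genes whose calls the text gives, the block ended those of Itgav, Adamts13, Flna, Apbb1ip, Eng, Plvap, Elane, Sh2d2a and Cxcl3 and changed no other call. Leaving out each library in turn gave 2683 to 3943 and 1089 to 2078 genes, 5 to 9 lower among the other platelet genes and 0 to 1 lower among the 9. Of these 6 fits, Vwf was past the threshold only in the one without AE9a-Ddit4+/+ replicate 2. The cause of these changes was not tested. No called result changed direction. The 6 genes of the 9 called higher were past the threshold under each of the other alternatives in which counts were fitted. Gp6, with 5 of 6 libraries below 12 counts, allowed no difference to be detected.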
